A study of Mus musculus with 232 samples.

Results

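The cells described here carry the name GC-juv, juvenile granule cells, in the authors' deposited annotation of a single-cell RNA dataset of the mouse dentate gyrus. They were taken as every cell with exactly that cluster name, which gave 3420 of 24185 cells, or 14.1%. Of these, 1479 came from P18, 718 from P19, 1089 from P23 and 121 from P132, while P5 gave 8 cells and P120 gave 5. P18, P19 and P23 together held 96.1% of them.

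Granule cells are the principal excitatory neurons of the dentate gyrus, the hippocampal field that receives cortical input and that keeps forming neurons after birth. A granule cell passes from neuroblast to an immature stage marked by doublecortin and calretinin, and then to a mature stage marked by calbindin, while the transcription factor Prox1 stays on throughout and keeps the granule fate apart from that of CA3 pyramidal cells. Its axon, the mossy fibre, releases glutamate together with zinc onto CA3.

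Tissue was microdissected, dissociated with papain and captured on the 10X Genomics Chromium system with version 2 chemistry, per the labels. Mice of the CD-1 stock gave E16.5, P0 and P5, with unknown sex, and P18 and P23, from males. P19 came from C57Bl/6 females. P120 (2 males and 1 female) and P132 (3 males and 1 female) were hGFAP-GFP mice, which carry green fluorescent protein under the human promoter of the astrocyte and radial glia gene GFAP. Their cells were sorted for GFP, so the adult granule cells are those that sorted as GFP-positive. Animals were pooled at each age, so an age is the unit of replication here, and p-values measure only the spread between these pools. Strain, sex, sorting and age cannot be told apart between P19 and the other juvenile ages or between juvenile and adult ages.

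The GC-juv cells held 12302777 unique molecular identifiers (UMIs, counts of captured RNA molecules) over 17206 of the 27933 genes in the table. The median per cell was 2221 UMIs at P18, 2976.5 at P19, 5707 at P23 and 2794 at P132, so P23 was the deepest sample and P132, with 336112 UMIs in all, the thinnest. Mitochondrial genes took between 7.05% (P23) and 12.3% (P18) of the UMIs and ribosomal protein genes between 6.73% (P18 and P19) and 12.7% (P132). Of the 3420 cells, 127 carried a barcode also found in another of the 11 libraries, and 6 barcodes marked GC-juv cells in more than 1 library. Levels below are in CPM, a gene's share of all UMIs summed over the GC-juv cells of an age, times 1e+06.

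The 4 marker genes were examined first. Prox1 stood at 578, 647, 385 and 723 CPM at P18, P19, P23 and P132. In the CA3-Pyr cluster, the CA3 pyramidal cells of the same samples, Prox1 was between 9.0 and 21.4 CPM. The clusters did not overlap at any age. A Prox1 UMI was found in 70.2%, 78.8%, 84.8% and 81.0% of GC-juv cells at those ages, against 8.46%, 11.2%, 6.60% and 6.06% of CA3-Pyr cells, although the CA3-Pyr cells were deeper, with medians of 4872 to 8717.5 UMIs. With every cell thinned to 1000 UMIs the shares were 44.1%, 47.6%, 31.1% and 47.1% in GC-juv and at most 2.79% in CA3-Pyr, so the gap was there at equal depth as well. Calb1, which encodes the calcium-binding protein calbindin, stood at 768, 578, 734 and 604 CPM. Rasl10a, a Ras-like GTPase, stood at 276, 321, 386 and 271 CPM. Plk5, a member of the polo-like kinase family, was the exception among the 4, at 14.2, 13.8, 58.0 and 20.8 CPM and with a UMI in 3.11%, 4.18%, 25.8% and 5.79% of the cells. The other 3 markers were therefore plentiful at every age, and Plk5 was sparse outside P23, the deepest sample. After thinning, Plk5 was found in 1.62%, 1.39%, 4.22% and 4.96% of the cells. In the cluster named GC-adult, thinned shares at P18, P19 and P132 were 2.0%, 5.51% and 6.58% for Plk5. Rasl10a was found there in 32.7%, 34.9% and 41.4%, against 23.1%, 25.8% and 15.7% in GC-juv. Prox1 (34.0%, 39.3% and 36.4%) and Calb1 (40.7%, 30.1% and 25.5%) were found in fewer cells of GC-adult than of GC-juv. Of the 3 markers that reached a mean of 50 CPM over both clusters, 0 differed by 2-fold at every such age.

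Markers of other cell types were also counted in GC-juv. Over P18, P19, P23 and P132 the summed level was 8.0 to 17.96 CPM for 5 markers of oligodendrocyte precursors, 41.5 to 56.5 CPM for 8 of microglia, 3.47 to 17.9 CPM for 5 of Cajal-Retzius cells and 110 to 223 CPM for 12 of pyramidal and mossy cells, of which Csf2rb2 and Drd2 were at 0 at P18, P19 and P23. The 9 astrocyte markers summed to 545 to 625 CPM and the 8 oligodendrocyte markers to 256 to 437 CPM. Among the latter, Mbp, myelin basic protein, stood at 166, 114, 238 and 158 CPM. CA3-Pyr cells held Mbp at 123, 65.9, 131 and 58.5 CPM in the same samples, so the transcript was found in both neuronal clusters. The 6 endothelial markers summed to 430, 430, 547 and 226 CPM, of which Bsg, basigin, a surface protein also made by neurons, held 414, 404, 524 and 217 CPM.

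GC-juv cells were close to absent up to the first week after birth, made up a large share of the juvenile tissue, and were rare among the sorted adult cells. No GC-juv cell was found among 2285 cells at E16.5 or 4779 at P0, and 3 cells of the total allow shares of up to 0.131% and 0.0628%. The share of all cells was 0.180% at P5 (exact Clopper-Pearson 95% interval 0.0779 to 0.355), 54.5% at P18 (52.6 to 56.4), 34.5% at P19 (32.5 to 36.6) and 40.3% at P23 (38.5 to 42.2). All 3 juvenile ages lay above all 3 perinatal ages, with means of 43.1% ± 10.3 (SD, n = 3 ages) against 0.0601% ± 0.104. The two-sided exact permutation test gave p = 0.1, the smallest that 3 ages against 3 can give. The cluster is named juvenile and 96.1% of its cells came from these juvenile ages, so the direction was known beforehand. This test and the one on the lineage below therefore add no support. Intervals cover counting error only.

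Among granule lineage cells alone, that is the clusters named Neuroblast, Immature-GC, GC-juv and GC-adult, GC-juv took 0.469% at P5, 77.4% at P18, 59.7% at P19 and 78.6% at P23. The means were 71.9% ± 10.6 at juvenile ages and 0.156% ± 0.271 at perinatal ages (exact permutation p = 0.1, SD, n = 3 ages each). P19 was the lowest juvenile age by both measures. In the sorted adult samples the cluster was 0.367% of cells at P120 and 3.16% at P132, and 2.58% and 5.26% of the lineage. Both P132 libraries gave a like share, 3.10% and 3.22%.

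**Figure D1:**
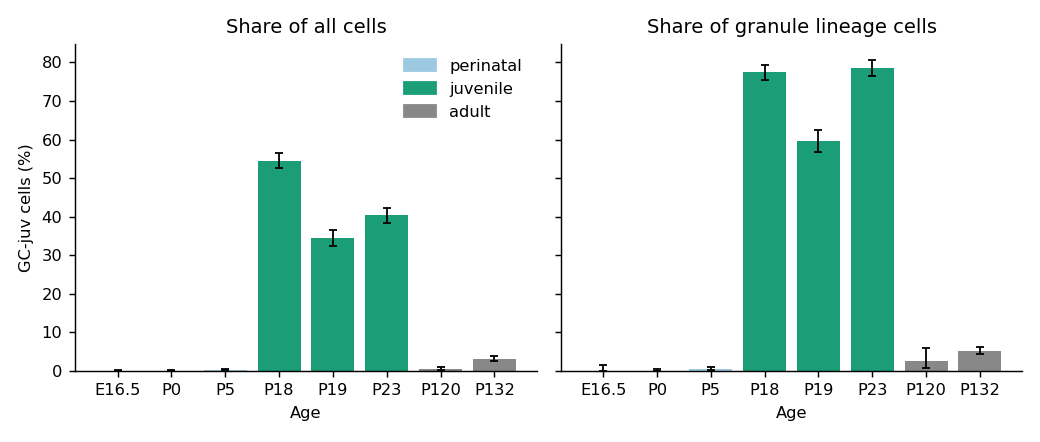
Share of cells named GC-juv at each of the 8 ages, in percent of all cells (left) and of granule lineage cells (right), with exact 95% intervals as error bars that cover counting error only. The juvenile bars stand at 34.5% to 54.5% of all cells and at 59.7% to 78.6% of the lineage, and the perinatal bars are at or near 0.

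The step before GC-juv was described by setting it against Immature-GC, the cluster of immature granule neurons, within P18, P19, P23 and P132. These clusters were drawn on expression of the same genes, so the ratios that follow describe them and carry no test. Genes of a mean of 50 CPM or more were compared as log2 ratios of CPM + 10, and a gene was counted where it differed by 2-fold or more in the same direction at every age. Of 3384 genes, 301 (8.89%) were higher and 128 (3.78%) lower in GC-juv, and the median gene lay at a log2 ratio of 0.21. GC-juv cells were the deeper ones (medians of 2221, 2976.5, 5707 and 2794 UMIs against 1717, 1901.5, 4525.5 and 1772.5) and held less ribosomal protein RNA (6.73%, 6.73%, 8.72% and 12.7% against 15.0%, 16.9%, 16.8% and 24.2%). With every cell thinned to 1000 UMIs the counts were 320 and 131. At P132, where Immature-GC had 26 cells and 3 UMIs amount to 62.8 CPM, ratios to a gene at 0 rest on the added 10 CPM. Leaving that age out gave 332 and 156 genes.

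The immature granule programme was low in GC-juv at every age. Of 18 immature granule markers, 16 reached 50 CPM, 15 were lower and 0 higher, with a median log2 ratio of -3.40. The remaining gene of the 16, Fxyd7, did not pass at every age. Summed, the list stood at 1219, 920, 1046 and 536 CPM in GC-juv and at 8671, 12225, 10999 and 13363 CPM in Immature-GC, and the ranges did not overlap. The list thus reached 50 CPM mainly through Immature-GC, so its count is partly built in. Of all genes, 3.78% were lower. Igfbpl1, an insulin-like growth factor binding protein family member, had the lowest ratio (31.1, 12.9, 17.0 and 0 CPM against 600, 874, 831 and 1487, mean log2 ratio -5.34 ± 1.39, SD, n = 4 ages). Calb2, calretinin, stood at 6.51, 15.7, 6.15 and 0 CPM against 162, 476, 223 and 796 (-4.45 ± 1.30). Dcx, doublecortin, was not gone, at 23.1, 21.6, 20.02 and 5.95 CPM against 172, 238, 213 and 314. Other genes among the 12 lowest ratios were Cd24a, a surface glycoprotein of young neurons (-4.79 ± 0.70), the axon guidance ligand Sema3c (-4.36 ± 0.69), Nnat (-3.53 ± 0.95) and Ddah2 (-3.78 ± 1.11).

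Genes of the growing cytoskeleton went the same way. Of 23 cytoskeleton and axon growth genes, all above 50 CPM, 12 were lower and 1 higher in GC-juv (median log2 ratio -1.62). Of all genes, 3.78% were lower and 8.89% higher. Dcx, Gap43, Stmn1, Stmn2, Tubb2b, Tubb3, Dpysl3 and Dpysl5 were already counted among the immature granule markers, so the counts overlap. A gene could also reach the mean of 50 CPM through Immature-GC alone. Stmn1, stathmin, which binds free tubulin, stood at 136, 98.1, 226 and 83.3 CPM against 1890, 2999, 2248 and 2702 (-4.16 ± 0.80). The actin-sequestering thymosin Tmsb10 followed at 468, 268, 474 and 104 CPM against 7386, 7737, 5584 and 10075 (-4.69 ± 1.30). Both genes were low in GC-juv at each age with no overlap. The tubulins Tuba1a, Tubb2b, Tubb3 and Tubb5 were among the 12, as were Gap43, Marcksl1, Stmn2, Dpysl3 and Dpysl5. The gene that was higher was Nefl, the neurofilament light chain, at 582, 500, 566 and 408 CPM against 95.8, 73.9, 130 and 0.

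Among 24 transcription factors of granule and other neurons, 20 reached 50 CPM, 5 were lower in GC-juv (Neurod1, Neurod6, Nfia, Sox4 and Sox11) and 1 was higher (Mef2c), with a median log2 ratio of -0.58. These counts stand beside 3.78% of all genes lower and 8.89% higher. Neurod1, Sox4 and Sox11 were already counted among the immature granule markers. Sox11, a factor of newborn neurons, stood at 112, 96.7, 78.2 and 74.4 CPM against 894, 1591, 899 and 1089 (-3.47 ± 0.45). Neurod1, which drives granule neuron differentiation, stood at 99.8, 84.7, 91.3 and 62.5 CPM against 455, 543, 386 and 440. Mef2c, a factor of synapse and activity programmes, was at 1033, 749, 713 and 899 CPM against 340, 206, 234 and 105. Prox1 did not separate the clusters, at 681, 611, 572 and 628 CPM in Immature-GC.

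**Figure D2:**
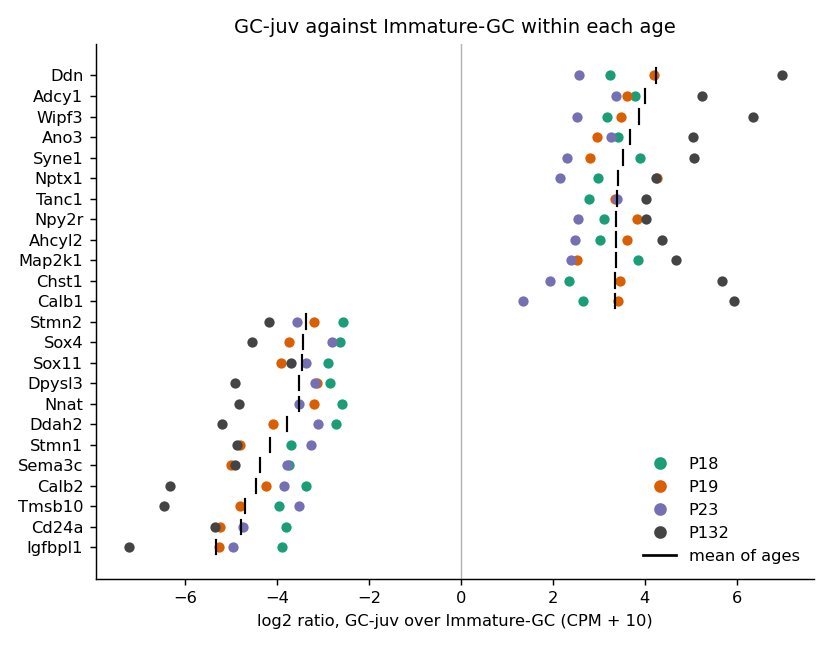
Log2 ratio of GC-juv to Immature-GC (CPM + 10) at each of 4 ages for the 12 genes with the largest and the 12 with the smallest mean ratio, with a bar at the mean over ages. Every point lies on its gene's side of 0, and the dark points of P132, where Immature-GC had 26 cells, are often the most extreme.

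On the other side, mature granule genes were high. Of 20 mature granule markers 10 reached 50 CPM, and 8 of them were higher in GC-juv and 0 lower (median log2 ratio 2.70): Calb1, Rasl10a, Dsp, C1ql2, Icam5, Slc30a3, Ahcyl2 and Tanc1. The list summed to 4070, 4484, 3945 and 4835 CPM in GC-juv and to 936, 575, 1482 and 586 CPM in Immature-GC. It thus reached 50 CPM mainly through GC-juv, and Calb1 and Rasl10a are 2 of the 4 marker genes of the cluster. The count is therefore partly built in, and 8.89% of all genes were higher. The largest mean ratio over the 4 ages was that of Ddn, dendrin, a postsynaptic protein whose mRNA is carried into dendrites. It stood at 464, 706, 470 and 1250 CPM against 40.4, 28.9, 70.9 and 0 (mean log2 ratio 4.25 ± 1.94), where the ratio at P132 rests on the added 10 CPM. Adcy1, the calmodulin-stimulated adenylate cyclase, followed at 915, 1056, 675 and 1166 CPM against 57.5, 77.1, 56.0 and 20.9 (4.00 ± 0.85). Both were higher in GC-juv at each age, and Adcy1 had the larger ratio at P18 and P23. The rest of the 12 held the synaptic organiser Nptx1 (3.41 ± 1.03), the neuropeptide Y receptor Npy2r (3.37 ± 0.67), the kinase MEK1 gene Map2k1 (3.36 ± 1.10), the nuclear envelope linker Syne1 (3.52 ± 1.23), the postsynaptic scaffold Tanc1 (3.39 ± 0.50), Wipf3, Ano3, Ahcyl2, Chst1 and Calb1.

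Receptors and transporters of both fast transmitters were higher in GC-juv or did not pass, and none was lower at every age. Of 17 ionotropic glutamate receptor genes, 7 reached 50 CPM and 4 were higher (Gria1, Gria3, Grin1 and Grin2a, median 1.51). Grin2a, the GluN2A subunit that joins NMDA receptors as synapses mature, stood at 441, 626, 465 and 684 CPM against 63.8, 64.3, 97.1 and 41.9 (2.90 ± 0.68). Grin2b, the subunit prominent in young neurons, was at 568, 790, 642 and 711 CPM against 298, 264, 386 and 398 and did not pass at every age. GC-juv was nonetheless the higher cluster for both subunits in all 4 samples. Of 14 genes for GABA-A receptor subunits and chloride transporters, 8 reached 50 CPM and 4 were higher, Gabra4 and Slc12a5 among them (median 1.49). Gabra4 stood at 178, 211, 169 and 167 CPM against 42.6, 48.2, 49.5 and 20.9. Slc12a5 encodes KCC2, which pumps chloride out of neurons and makes GABA inhibitory, and stood at 293, 321, 182 and 437 CPM against 76.6, 45.0, 79.3 and 20.9 (2.34 ± 1.18). Slc12a2, the chloride importer NKCC1, was low in both clusters, at 29.3, 27.6, 18.9 and 14.9 CPM against 27.7, 51.4, 12.1 and 20.9.

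The release and postsynaptic machinery showed the same pattern. Of 22 synaptic vesicle and release genes 19 reached 50 CPM and 9 were higher, 0 lower (median 1.40). Among them was Slc17a7, the vesicular glutamate transporter VGLUT1, at 596, 761, 575 and 592 CPM against 123, 113, 138 and 0. Slc30a3, the transporter ZnT3 that loads zinc into mossy fibre vesicles, stood at 136, 205, 145 and 226 CPM against 36.2, 45.0, 64.4 and 0. Of 18 postsynaptic and plasticity genes 13 reached 50 CPM and 7 were higher (median 1.80), Camk2a among them at 1547, 1777, 893 and 1532 CPM against 357, 183, 294 and 62.8. Of 29 voltage-gated channel genes 15 reached 50 CPM and 5 were higher (Scn8a, Scn2b, Kcnj3, Kcnip4 and Cacna1e, median 1.44). All of these shares stand beside the 8.89% of all genes that were higher, and a gene could reach the mean of 50 CPM through GC-juv alone.

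**Figure D3:**
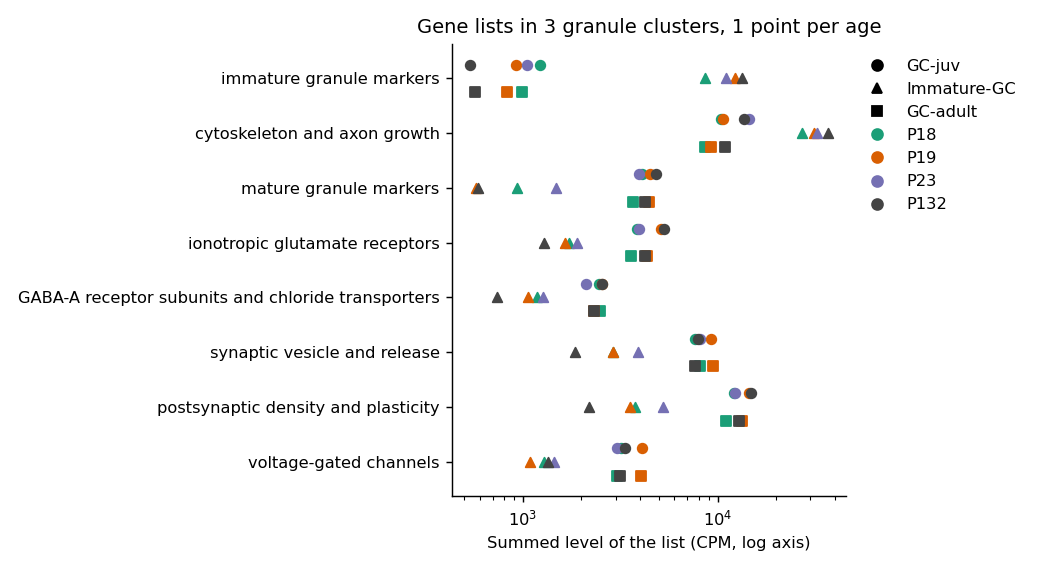
Summed level of 8 gene lists (CPM, log axis) in GC-juv, Immature-GC and GC-adult, 1 point per age. GC-juv and GC-adult points lie beside each other on every list, while Immature-GC points lie to the right of them on the 2 immature lists and to the left on the other 6.

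GC-adult, the cluster named as the adult counterpart, differed from GC-juv in few genes. Both clusters had 20 or more cells at P18, P19 and P132, with 150, 272 and 2129 GC-adult cells. Of 3612 genes, 3 (0.0831%) were higher in GC-juv at all 3 ages and 4 (0.111%) lower, and none belonged to the immature or mature granule lists. The 18 immature granule markers summed to 990, 826 and 567 CPM in GC-adult and to 1219, 920 and 536 CPM in GC-juv at those ages, and the 20 mature markers to 3693, 4420 and 4264 CPM against 4070, 4484 and 4835 CPM. The summed levels of GC-juv and GC-adult thus lay close together on both lists, and both names were present in the same samples, with GC-adult cells at P18 and P19 and GC-juv cells at P132.

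The genes that did differ were of mixed function. Bhlhe41, a repressor of the circadian clock family, had the lowest ratio, at 67.8, 70.5 and 23.8 CPM in GC-juv against 473, 288 and 85.1 in GC-adult (mean log2 ratio -2.0 ± 0.58, SD, n = 3 ages). Marf1, a regulator of RNA stability, stood at 147, 135 and 65.5 CPM against 722, 378 and 146 (-1.56 ± 0.60). Both were highest at P18 in GC-adult and lowest at P132 there. Acvr1c, a receptor of the activin family, was at 25.5, 36.4 and 14.9 CPM against 102, 103 and 60.3 (-1.48 ± 0.19). Pdcd4, an inhibitor of translation, was at 171, 180 and 125 CPM against 527, 484 and 288 (-1.36 ± 0.21). For these 4 genes GC-adult was the higher cluster in each sample. Higher in GC-juv were Hectd2, a ubiquitin ligase (74.0, 91.6 and 164 CPM against 19.2, 36.3 and 32.3, 1.57 ± 0.45), the actin-binding protein Cotl1 (1.48 ± 0.12) and the calmodulin-dependent kinase Camk4 (145, 166 and 89.3 CPM against 67.1, 72.6 and 18.7, 1.30 ± 0.43). At P18 and P19 alone 19 genes were lower in GC-juv. Actb, beta-actin, was among those of high level, at 2514 and 3931 CPM against 8706 and 11939, but its ratio at P132 was smaller (2264 against 3267 CPM) and it is not in the count over 3 ages.

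Against CA3-Pyr, the other mature excitatory neurons of the tissue, GC-juv differed in both directions. Of 3784 genes, 73 (1.93%) were higher and 151 (3.99%) lower in GC-juv at all of P18, P19, P23 and P132, where CA3-Pyr had 201, 179, 106 and 33 cells, and the median log2 ratio was -0.04. Prox1 had the largest ratio (4.58 ± 0.48, SD, n = 4 ages), and Prox1os, its antisense partner, was also among the 12 (3.38 ± 0.17). Whether the counting used strand is not given in the sources used here, so reads of Prox1 and Prox1os may not be separable. Dock10, a guanine nucleotide exchange factor, stood at 215, 226, 179 and 193 CPM against 9.90, 6.06, 4.19 and 4.50 (3.73 ± 0.17). Others of the 12 were Rfx3, a ciliary transcription factor (3.37 ± 0.93), Slc4a4, a bicarbonate transporter (3.0 ± 0.61), the desmosome protein Dsp (2.93 ± 0.48), Fam163b, Stxbp6, Ahcyl2, Plekha2, C1ql2 and Calb1. The last was less clear at P23, where CA3-Pyr held 361 CPM of Calb1 and 1868 CPM of Mef2c, against 26.4 to 40.5 and 61.3 to 158 CPM at its other ages.

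Neurod6, a factor of pyramidal neurons, was near 0 in GC-juv, at 15.4, 15.2, 10.1 and 0 CPM against 861, 737, 558 and 608 (-5.19 ± 0.52). Sv2b, a synaptic vesicle glycoprotein, had the lowest ratio of all, at 7.40, 4.61, 4.10 and 5.95 CPM against 793, 672, 323 and 630 (-5.24 ± 0.46). Both left a wide gap between the clusters at every age. Of 12 pyramidal and mossy cell markers, 6 reached 50 CPM and all 6 were lower in GC-juv (median -3.0), beside 3.99% of all genes. The list summed to 110 to 223 CPM in GC-juv and 1617 to 2068 CPM in CA3-Pyr. It thus passed the filter on mean level mainly through CA3-Pyr, so the count is partly fixed by that filter. The vesicle list also leaned towards CA3-Pyr, with 8 of 21 measured genes lower and 0 higher (median -1.20), among them Snap25 at 1111, 1071, 1462 and 1229 CPM against 3550, 3510, 2976 and 3704. Of 7 glutamate receptor genes and 8 genes for GABA-A receptors and chloride transporters 0 passed in either direction, beside 1.93% of all genes higher and 3.99% lower. Gria2, the GluA2 subunit, was nearly level between them, at 1598, 2034, 1688 and 2559 CPM against 1719, 2032, 1528 and 2448 (0.03 ± 0.10). Of 29 genes in the voltage-gated channel list 24 reached 50 CPM. Of these, 3 were lower in GC-juv, Kcnq5 and Cacng2 among them, and 1 was higher, Scn3a (median -0.37). These counts stand beside the same shares of all genes. Kcnq5, a subunit of the potassium channels that carry the M-current, was at 9.48, 3.22, 3.15 and 5.95 CPM against 212, 114, 62.8 and 117.

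**Figure D4:**
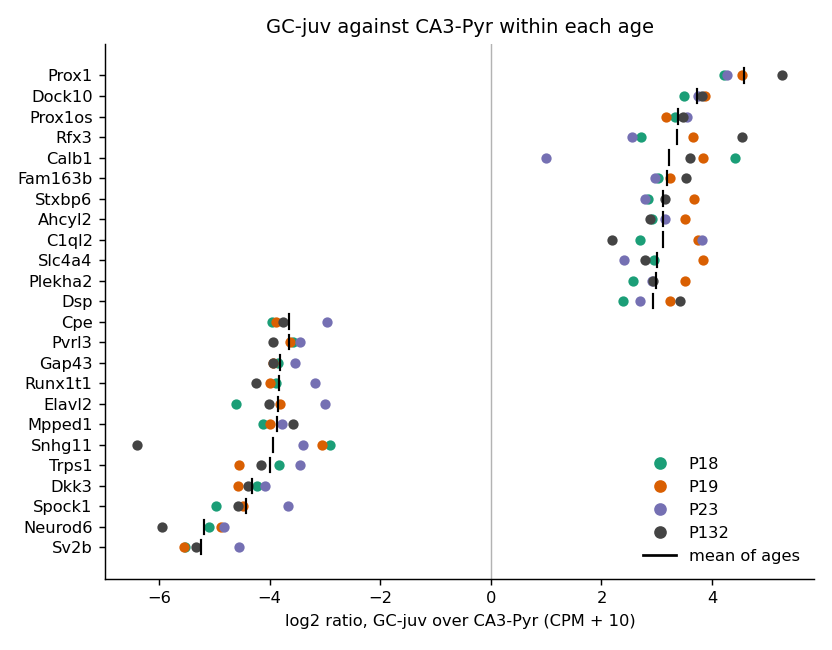
Log2 ratio of GC-juv to CA3-Pyr (CPM + 10) at each of 4 ages for the 12 genes with the largest and the 12 with the smallest mean ratio, with a bar at the mean over ages. The points of most genes lie close together, and Calb1 at P23 is the lowest point among the genes higher in GC-juv.

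Among secreted ligands, GC-juv held the synaptic organisers of the C1q-like family. C1ql3 stood at 594, 716, 632 and 1006 CPM against 58.6, 61.3, 123 and 293 in CA3-Pyr. C1ql2, which acts at mossy fibre synapses, stood at 151, 205, 279 and 35.7 CPM against 14.8, 6.06, 10.5 and 0. Both were above CA3-Pyr at each age, with C1ql2 lowest at P132. With cells thinned to 1000 UMIs, a C1ql2 UMI was found in 19.3%, 24.6% and 10.6% of GC-adult cells at P18, P19 and P132. GC-juv cells gave 14.2%, 18.9% and 4.96% at those ages. For C1ql3 the shares were 42.0%, 46.7% and 63.9% in GC-adult and 43.8%, 46.9% and 64.5% in GC-juv. Both genes were thus found in GC-adult as well. Of 21 peptide and ligand genes 11 reached 50 CPM in the comparison with CA3-Pyr, 4 were higher in GC-juv (C1ql2, C1ql3, Igfbp5 and Sema5a) and 4 lower (Cck, Vgf, Igfbp4 and Chgb), with a median of 0.02. These counts stand beside 1.93% of all genes higher and 3.99% lower. A gene could reach the mean of 50 CPM through a single cluster, as C1ql2 did through GC-juv. Pdyn, the dynorphin precursor of mossy fibres, was at 24.3, 29.0, 41.8 and 65.5 CPM in GC-juv and at most 1.65 CPM in CA3-Pyr. Penk, the enkephalin precursor, was at 1.48, 5.07, 15.0 and 0 CPM. Gad1, the GABA-synthesising enzyme GAD67 that granule cells are known to make at low level, stood at 90.3, 114, 86.4 and 101 CPM, against 5.77, 9.09, 3.14 and 0 in CA3-Pyr. A Gad1 UMI was found in 18.2%, 27.9%, 37.9% and 25.6% of GC-juv cells and in 1.99%, 6.15%, 1.89% and 0% (3 cells allow up to 9.09%) of the deeper CA3-Pyr cells (thinned to 1000 UMIs, 8.05% to 12.1% against at most 3.35%). The other GABA neuron genes Gad2 (0 to 3.22 CPM) and Slc32a1 (0 to 0.631 CPM) were near 0 in GC-juv at the same ages.

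Immediate early genes, which neurons switch on within minutes of strong activity or of tissue handling, stood at different levels in the GC-juv samples. The 24 genes summed to 1097 CPM at P18, 1101 at P19, 2374 at P23 and 595 at P132, so P23 was the high sample. Fos, the founding member, stood at 16.6, 27.2, 191 and 5.95 CPM. Junb, another component of the AP-1 factor, stood at 312, 192, 674 and 74.4 CPM. Npas4, a calcium-driven factor of neurons, was at 6.51, 12.4, 69.8 and 2.98 CPM and Egr4, a zinc finger factor, at 23.1, 21.2, 112 and 17.9 CPM. In each of these 4 genes P23 was the highest and P132 the lowest sample. A Fos UMI was found in 2.91%, 4.87%, 26.8% and 0.826% of GC-juv cells, against 10.9%, 6.70%, 14.2% and 12.1% of CA3-Pyr cells. Thinned to 1000 UMIs the shares were 1.15%, 2.51%, 10.9% and 0.826% in GC-juv and 2.49%, 1.12%, 0% and 3.03% in CA3-Pyr, so the height of P23 remained at equal depth. The thinned shares of mature oligodendrocytes (MOL) with Fos were 7.14% at P18, 1.59% at P19 and 9.90% at P23, so P18 was not low there as it was in GC-juv. Immature-GC cells held far more of the list, with sums of 2668, 5866, 4120 and 1215 CPM and Fos at 189, 669, 590 and 41.9 CPM. There the order of the ages was different, with P19 highest. Of the 24 genes 8 reached 50 CPM in the comparison with Immature-GC, 1 (Fos, log2 ratio -2.59 ± 1.22) was lower in GC-juv and 0 higher. Of all genes, 3.78% were lower and 8.89% higher, and Fos reached 50 CPM mainly through Immature-GC. The heat shock list, often moved by dissociation, summed to 2934, 2396, 3112 and 2074 CPM. P18 and P23 share strain and sex. The part of tissue handling in these levels was not tested.

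The promoters of 4 of the genes that stood highest at P23 are shown. They were chosen because they hold a short core of the cyclic AMP response element, the site through which CREB acts on many activity genes. Each is the 150 bases before the RefSeq start site in build GRCm38.p6, read 5′ to 3′ on the gene's strand. Capitals mark each match to TGACG or, on the other strand, CGTCA. Fos lies at chr12:85473740-85473889 on the plus strand, Fosb at chr7:19310046-19310195, Egr4 at chr6:85513590-85513739 and Junb at chr8:84978749-84978898, all 3 on the minus strand.
Fos: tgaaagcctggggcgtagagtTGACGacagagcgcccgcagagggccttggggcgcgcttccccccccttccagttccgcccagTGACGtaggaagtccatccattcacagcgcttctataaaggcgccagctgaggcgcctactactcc
Fosb: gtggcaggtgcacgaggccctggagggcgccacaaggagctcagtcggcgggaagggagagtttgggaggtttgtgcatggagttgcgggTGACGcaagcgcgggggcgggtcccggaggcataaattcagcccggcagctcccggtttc
Egr4: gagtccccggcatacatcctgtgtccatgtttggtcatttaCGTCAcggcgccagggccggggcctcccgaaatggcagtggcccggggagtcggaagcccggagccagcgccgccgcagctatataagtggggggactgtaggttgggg
Junb: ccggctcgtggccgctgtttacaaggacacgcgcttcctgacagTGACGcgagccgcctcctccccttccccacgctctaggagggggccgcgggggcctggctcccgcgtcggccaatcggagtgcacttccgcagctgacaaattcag
Fos held 2 matches in this window and the other genes shown 1 each, while Npas4, which also stood highest at P23, held 0 in the same window. Promoters were found for 20 of the 24 immediate early genes, with 24 start sites. In the 250 bases before the start, 16 of those 24 (66.7%) held the core on either strand, against 17.8% of all 32851 promoters in the table. The full 8-base palindrome TGACGTCA, which contains the core, was in 8.33% against 1.55%. The TATA box TATAAA was in 12.5% against 12.4%, and the E-box CAGCTG in 16.7% against 13.0%. Npas4 was among the genes with a core match in the 250 bases. The core holds a CG pair while TATAAA and CAGCTG do not, and the promoters compared were not matched for CG content. A match describes the sequence and not a bound site.

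**Figure D5:**
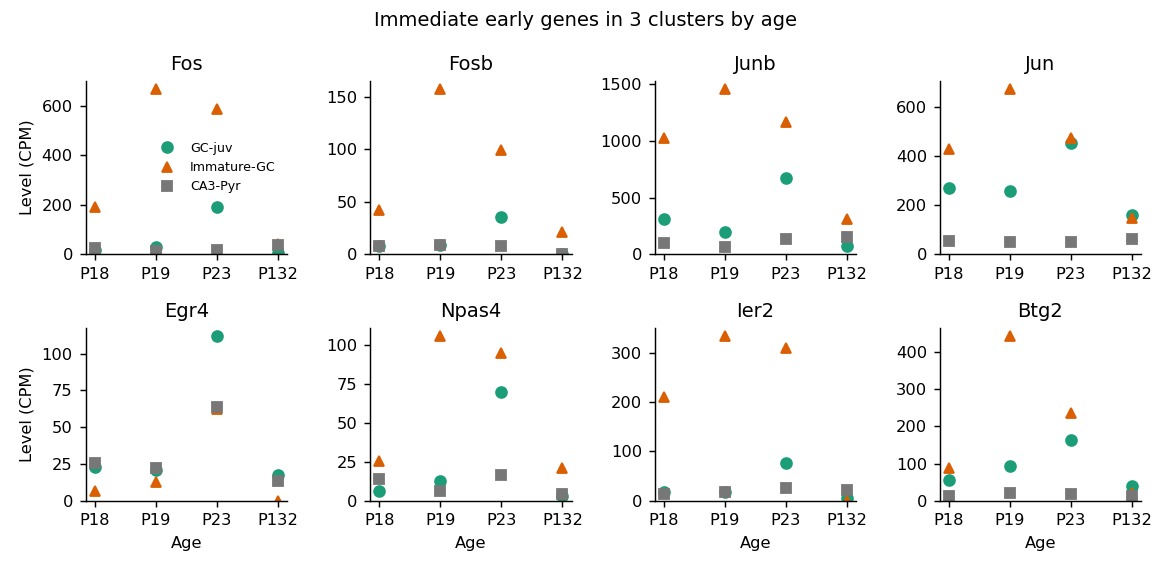
Level (CPM) of 8 immediate early genes by age in GC-juv, Immature-GC and CA3-Pyr, 1 point per cluster and age. In GC-juv the P23 point is the highest for each of the 8 genes, with Fos at 191 CPM.

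P19, the only female C57Bl/6 sample, was compared with P18 and P23, the male CD-1 samples on either side of it in age. The edgeR quasi-likelihood test with Benjamini-Hochberg adjustment over 11489 genes called 63 (0.548%) higher and 112 (0.975%) lower at P19 at an adjusted p under 0.05. All 63 and 109 of the 112 had P19 outside the range of the other pair, and the exceptions among the 112 were Fos, Ier2 and Npas4. DESeq2 called 45, of which 44 were shared, and the cells thinned to 1000 UMIs gave 88. P19 is 1 sample, so it is assumed to vary like P18 and P23. A gene called in this contrast is likely to have P19 outside the range of the other pair. That position was not counted over all genes, so it adds no support to the calls.

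The sex of the pools showed first. Xist, which is transcribed from the inactive X chromosome of females, was at 3.26, 2192 and 2.05 CPM at P18, P19 and P23 (log2 fold change 9.60 ± 0.52 SE, edgeR adjusted p 1.8e-71). The Y-linked Ddx3y was at 97.1, 0 and 94.4 CPM, at least 69.0-fold lower at P19, and Eif2s3y at 70.2, 0 and 92.2 CPM, at least 61.2-fold lower, with 3 UMIs over the sample as the floor. Outside the sex chromosomes, Sag, arrestin of the retina, stood at 16.3, 168 and 26.3 CPM (2.81 ± 0.33) and Zmym1 at 15.7, 161 and 32.9 CPM (2.56 ± 0.33). Igf2bp3, an mRNA-binding protein of growing cells, was at 61.3, 342 and 106 CPM (1.88 ± 0.32). The metal-binding metallothionein Mt1 was at 296, 1036 and 324 CPM (1.59 ± 0.37) and the neuronal elongation factor Eef1a2 at 91.8, 331 and 119 CPM (1.5 ± 0.33). In each of these genes P19 alone was high. Cebpb, Lipe, Ppp1r16b and Ncs1 completed the 10 named, of which DESeq2 did not call Lipe (adjusted p 0.194).

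Among genes that fell at P19, Rnf121, a ubiquitin ligase, went furthest outside the Y chromosome, at 646, 19.3 and 212 CPM (log2 fold change -4.63 ± 0.49), although DESeq2 gave it an adjusted p of 0.0825. Cap1, which recycles actin, was at 162, 23.5 and 178 CPM (-3.0 ± 0.41). Nrip3 stood at 251, 37.8 and 196 CPM (-2.71 ± 0.40) and the lipoprotein lipase gene Lpl at 104, 20.7 and 89.1 CPM (-2.37 ± 0.40). These 4 were low at P19 alone. CA3-Pyr cells of the same samples gave Rnf121 at 280, 18.2 and 110 CPM, Cap1 at 139, 28.8 and 125 CPM, Igf2bp3 at 18.97, 128 and 45.0 CPM and Sag at 9.07, 45.4 and 11.5 CPM, so P19 stood on the same side there. Tagln3 (446, 163 and 763 CPM), Scg5 (219, 73.2 and 314 CPM), Egr4 and Dctn3 (196, 115 and 486 CPM) completed the named genes, and DESeq2 did not call Egr4 or Dctn3 (adjusted p 0.9998 for both).

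The counts over lists stand beside the 0.548% of all genes that were higher and the 0.975% that were lower at P19. None of the 15 glutamate receptor genes tested, the 12 for GABA-A receptors and chloride transporters, the 22 vesicle genes, the 28 channels or the 21 transcription factors passed in the edgeR fit. In the mature granule list 1 of 20 was called, Plk5, lower at P19 (14.2, 13.8 and 58.0 CPM), and in the immature list 1 of 16, Fxyd7, lower (93.3, 30.9 and 82.3 CPM). Plk5 was as low at P18, and DESeq2 called neither (adjusted p 0.9998 and 0.0701). The immediate early list had 6 of 22 called lower (Arc, Egr4, Fos, Ier2, Junb and Npas4), with a median log2 fold change of -0.71 against -0.03 for all genes. For Fos the edgeR adjusted p was 1.8e-05, but DESeq2 gave an adjusted p of 0.9998 for each of the 6, and thinned cells kept only Fos and Egr4 of them. P18 was lower still than P19 in Fos, Ier2 and Npas4, and in all 6 the sample apart was P23. In simulated counts this contrast recovered 25% of 2-fold changes, so lists without a call are not shown to be unchanged.

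Between the juvenile ages and P132 the GC-juv profile differed in few genes that could be called. P132 was the only adult sample with 20 or more GC-juv cells, so it is assumed to vary like the juvenile samples. In the edgeR quasi-likelihood test with Benjamini-Hochberg adjustment over 11383 genes, 2 (0.0176%) were higher and 0 (0.0%) lower at P132, with 801 at an unadjusted p under 0.05. DESeq2 called 7 higher and 2 lower. P132 held 336112 UMIs in GC-juv against 2171555 to 6343807 at the juvenile ages. Leaving out 1 juvenile age gave 29 calls without P18, 120 without P19 (46 higher and 74 lower) and 0 without P23. Both genes are outside the rule for named genes and were chosen after their values were seen.

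Fst, follistatin, a secreted antagonist of activins, stood at 14.8, 10.6 and 12.8 CPM at P18, P19 and P23 and at 119 CPM at P132 (log2 fold change 3.20 ± 0.37 SE, edgeR adjusted p 0.0286). P132 stood well above the 3 juvenile samples, which lay close together. A Fst UMI was found in 2.91%, 2.65% and 4.78% of the juvenile GC-juv cells and in 27.3% of those at P132 (thinned, 1.49%, 1.25%, 0.918% and 8.26%). Both P132 libraries showed it, with 18 UMIs in 14 of 59 cells and 22 UMIs in 19 of 62 cells. At P120, which was not in the test, the 5 GC-juv cells held 7 Fst UMIs, or 252 CPM. In the GC-adult cluster at P132 Fst was at 8.65 CPM, with a UMI in 1.41% of 2129 cells, and Immature-GC held none at P18, P19, P23 or P132 (3 cells of the total allow up to 1.17%, 2.05%, 1.29% and 11.5%). Fst was thus high in GC-juv of both adult samples and low in the GC-adult cells of P132. The log2 fold change was 3.21 without P23 (edgeR adjusted p 0.207) and 2.73 with every cell thinned to 1000 UMIs (0.633). The edgeR adjusted p was 2.7e-08 without P18 and 3.5e-10 without P19. Gm8730, a predicted gene, was at 79.4, 103 and 54.7 CPM against 663 (3.09 ± 0.34, edgeR adjusted p 0.0286), and at P132 it was also high in Immature-GC (2492 CPM), GC-adult (572 CPM) and CA3-Pyr (216 CPM). It stood at 646 CPM at P5 and 612 CPM at P120, so the juvenile samples were the low ones. Without P23 its log2 fold change was 2.89 (edgeR adjusted p 0.0903), and the adjusted p was 4.2e-06 without P18 and 2.7e-17 without P19.

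No member of the fixed lists was called between juvenile ages and P132, where 0.0176% of all genes were called. Immature granule markers were low at P132 (536 CPM summed, against 920 to 1219), with a median log2 change of -0.89 over the 14 of 16 tested genes that allow a fold, where genes at 0 are held at their bound of 3 UMIs and the median of all genes is -0.04. Mature granule markers had a median of 0.19 over 20 genes, glutamate receptors 0.07 over 15 and transcription factors 0.05 over 21. The immediate early genes had a median of -1.37 over 21 of 22 genes, with P132 below every juvenile sample in the summed level. In simulated counts this contrast recovered 5% of 2-fold and 60% of 4-fold changes, placed in genes of a mean of 50 CPM or more. Lists without a call are therefore not shown to be unchanged. The 5 adult P120 and 8 perinatal P5 cells were too few to test. At P5 the GC-juv cells held Prox1 at 560 CPM and Calb1 at 883 CPM, and their immature markers summed to 3404 CPM. Rasl10a was at 21.5 CPM there, under the 64.6 CPM that 3 UMIs amount to, so no low level of it was measured.

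The spread among cells within an age was described at equal depth. At 1000 UMIs per cell, the variance over mean of 1507 genes had a median of 1.02, 1.03 and 1.02 at P18, P19 and P23, where counting noise alone gives 1. At such low counts per cell the measure is insensitive to differences between cells. The nuclear RNA Malat1 spread most, at 10.8, 13.2 and 9.16, followed by Actb, at 4.07, 8.74 and 5.34. Junb came next among named genes, at 1.97, 2.49 and 2.36, with a thinned UMI in 20.8%, 12.7% and 34.3% of the cells. Mitochondrial genes were also among the most variable and are counted as a group. Cst3, Tmsb10, Tmsb4x, Mbp, Fth1, Meg3, Chgb, Gas7 and Pcdh8 completed the 12. Mbp, which granule cells are not known to make, had a ratio of 1.47, 1.39 and 1.57 and a thinned UMI in 14.5%, 10.4% and 17.9% of GC-juv cells, against 5.47%, 12.3% and 12.3% of CA3-Pyr cells. At 500 UMIs per cell 8 of the 12 remained among the first 12.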

How the data were processed

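The values analysed are the authors' deposited counts of UMIs per gene and cell, with cell age, mouse line, sex and cluster name from the authors' deposited annotation. Cell Ranger and build mm10 are named in the submitters' processing notes. The gene annotation, cell filters, doublet treatment and clustering method are not given in the sources used here, and no cell was removed here. GC-juv cells were summed per age, because the animals of an age were pooled and the labels' numbered samples of an age split 1 pool. Ages with 20 or more cells entered. Tests used edgeR 4.0.16 (limma 3.58.1, R 4.3.3: TMM, filterByExpr, quasi-likelihood F test, two-sided, Benjamini-Hochberg), with DESeq2 1.42.0 as an alternative. SE is the log2 fold change over the square root of F. Shares were tested with scipy 1.17.1, and the code was tested on simulated data. Named genes were the 10 largest changes per direction of those called, of a mean of 50 CPM and not overlapping, or the 12 largest ratios per direction between clusters, plus members of the gene lists and the 12 most variable genes among cells. Genes named as predicted models, mitochondrial or ribosomal protein genes were counted but not listed. Cells, lists and rules were chosen with earlier results of these data known. Promoter sequences are RefSeq's for GRCm38.p6. Empty lines of the annotation (31) were left out. A few list members are not reported here, although counts and medians over their lists include them.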

Additional observations from a re-analysis of the deposited data

Results flagged for a closer look

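Prox1 stood higher in GC-juv at P132 (723 CPM) than at P18, P19 and P23 (578, 647 and 385 CPM), and the value in CA3-Pyr at P132 (9.0 CPM) lay below those of the same ages (21.4, 18.2 and 10.5 CPM). The CA3-Pyr value is 2 UMIs in 2 of 33 cells and lies under the 13.5 CPM of 3 UMIs, so no decrease was measured there, and the difference between the clusters was not tested. Both P132 libraries gave a like level in GC-juv, 730 and 717 CPM. The share of GC-juv cells with a Prox1 UMI, thinned to 1000 UMIs, was 47.1% at P132 and 31.1% to 47.6% at the juvenile ages.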

How the results depend on the processing

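No paired analysis was possible because the labels' replicate numbers mark parts of the cells of 1 age, and each test has 1 sum per age. Against Immature-GC, the 301 higher and 128 lower genes became 162 and 85 with 50 CPM added, 95 and 57 at 3-fold, and 462 and 195 from a mean of 10 CPM, with 298 to 430 and 129 to 179 when an age was left out. Against CA3-Pyr, 73 and 151 became 34 and 80 with 50 CPM added, 31 and 70 at 3-fold, and 139 and 273 from 10 CPM, with 76 to 98 and 157 to 211 when an age was left out. Against GC-adult, 3 and 4 became 0 and 0 with 50 CPM added or at 3-fold and 6 and 11 in thinned cells. With 1 CPM added, 7 were lower. Leaving out an age gave 2 to 10 higher (10 without P19) and 4 to 19 lower (19 without P132, and the same over juvenile ages only, an alternative chosen after seeing the data). The 2 calls of P132 against juvenile ages became 9 with DESeq2, 39 with no filter on low counts, 1 in thinned cells and 0 to 120 when an age was left out (29 without P18, 120 without P19, 0 without P23). The 175 calls at P19 became 45 with DESeq2 and 88 in thinned cells. No named gene with a call changed sign under the alternatives run, but the split of calls at P132 moved from 2 higher and 0 lower to 46 higher and 74 lower without P19, and that against GC-adult from 3 higher and 4 lower to 10 and 6. The mean share difference kept its direction, at 37.4 to 47.4 percentage points of all cells and 68.4 to 77.9 of the lineage when an age was left out. For P19, leaving out an age leaves no spread to test.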
